A study of Oryza sativa with 12 samples.

Results

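The alkali response of K83 shoots was read from 6 of the 12 arrays of a rice study, 3 from K83 seedlings treated with alkali salts and 3 from K83 seedlings in control medium, each group as titled by the submitters. All 12 were Affymetrix rice arrays hybridised with shoot RNA from the rice genotypes K83 and Jijing88. Seedlings of both genotypes were raised in hydroponic culture to an age of 7 days and then given fresh medium, either plain or holding 50 mM of alkali salts. Shoots were collected after a further 24 h, and every array carried the pooled RNA of 10 shoots. The 4 groups (K83 control, K83 alkali, Jijing88 control and Jijing88 alkali) had 3 arrays each, labelled as biological replicates, so that the spread given here is that between pools. The labels do not say how K83 arose or how it relates to Jijing88. They give neither the composition nor the pH of the salts, and no group had a neutral salt, so that alkaline, ionic and osmotic effects cannot be told apart.

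High pH lowers the solubility of iron and limits the supply of phosphate and of several metal ions, while the cations that come with alkali salts add an ionic and osmotic load. Rice takes up iron both as ferrous ions, through IRT and NRAMP transporters, and as ferric iron bound to phytosiderophores, which are made from nicotianamine and carried by YSL transporters. Nicotianamine also chelates metals inside the plant and travels with iron through the phloem to young leaves. Abscisic acid, LEA proteins, ion transporters and slower cell division are other known elements of salt and osmotic responses in cereals.

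The deposited log2 signals of 57258 probe sets were compared with limma, and a probe set was called where the Benjamini-Hochberg adjusted p over all probe sets was below 0.05. By this rule 3700 probe sets changed in K83, which is 6.46% of those tested, with 1493 higher (2.61%) and 2207 lower (3.85%). The fit shares its estimate of the spread over all 12 arrays. A gene was read from its brightest probe set among those assigned to that gene alone, which gave 17905 genes, of which 903 rose (5.04%) and 1400 fell (7.82%). Among the 2435 genes with a name, from which the gene lists described here were drawn, 6.41% rose and 8.95% fell. The lists were chosen with earlier results of these data known. Their shares of called members therefore describe the lists and are no independent test of enrichment. Probe sets that may also detect related transcripts read LEA19, GLK1, CCA1, OsPRR95, OsPIP2;7, OsSAPK9, AMT3-2, CHLH, LOC9268371 and LOC4340075, among others. More genes fell than rose, yet the falls were smaller. The median difference was 0.65 on the log2 scale for probe sets called higher and -0.50 for those called lower. At least a 2-fold change was seen for 346 called probe sets that rose and 152 that fell, or 0.870% of all probe sets together. At least 8-fold, 23 probe sets rose and 5 fell. The median gene moved by -0.04. Every K83 array of 1 group lay above every array of the other for 47.4% of genes and 29.0% of probe sets, so that separation of the arrays alone says little about a single gene. Without K83 control replicate 2 the number of called probe sets was 1721, and over the 6 fits that each left out a K83 array it ranged from 1721 to 2658.

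**Figure D1:**
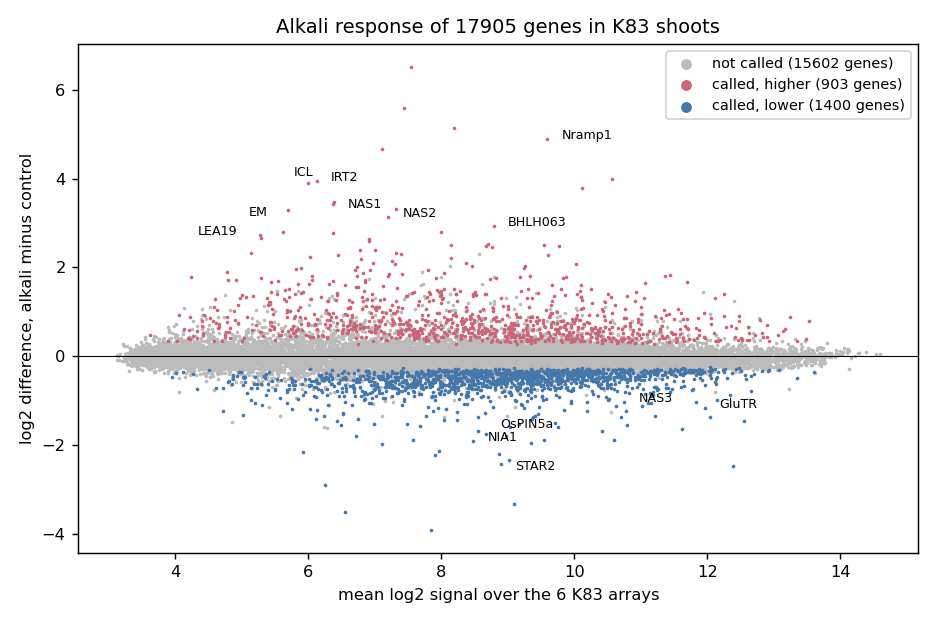
Difference between K83 alkali and K83 control arrays (vertical axis, log2) against the mean signal over the 6 K83 arrays (horizontal axis, log2), with 1 point per gene for 17905 genes. Red points are the 903 genes called higher and blue points the 1400 called lower. The red points reach further from 0 than the blue ones, up to 6.51 against -3.91.

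The K83 arrays of a group resembled each other, with a correlation over probe sets of 0.995 to 0.997. Array medians were 5.12 to 5.15 in control and 5.15 to 5.17 under alkali. A control mean below these medians is taken here as close to background, and a rise from it as a lower bound. The leaf markers, which included the rubisco small subunit gene OsrbcS, the rubisco activase gene rca and the light-harvesting genes LHCP and CAB2R, had a mean level of 11.77 ± 0.01 in control and 11.70 ± 0.05 under alkali (SD, n = 3). Another member, RBCS1, was near background at 3.50 and 3.39. Among 5 root markers OsSCR1 and OsSHR1, transcription factor genes that also act in leaves, fell by 0.57 and 0.64. The other 3, among them OsCASP1 of the endodermal barrier at 3.88 and 4.03, were near background in both groups. The mean level of the 5 root markers was 5.18 to 5.25 in control and 4.94 to 5.01 under alkali. None of 10 seed markers and none of 21 meristem markers was called by limma, and their mean levels were 5.22 and 5.25 for seed and 5.89 and 5.91 for meristem, in control and alkali. As a check of RNA integrity, the 3 prime minus 5 prime difference of actin was 3.46 ± 0.16 in control and 3.54 ± 0.02 under alkali for one pair of control probe sets, and 1.98 ± 0.15 and 2.18 ± 0.08 for another (SD over 3 arrays; exact permutation test, two-sided, p = 0.5 and p = 0.1, the second being the smallest possible). The same difference was 0.64 ± 0.11 and 0.64 ± 0.1 for GAPDH, and -0.09 ± 0.13 and -0.02 ± 0.05 for ubiquitin, in control and alkali. The part of RNA quality and of tissue makeup in the results was not tested. In shoot pools, fewer cells of a type and less RNA per cell cannot be told apart.

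Genes of iron and metal uptake had the largest rises among genes with a name. Nramp1 (LOC4342862, chromosome 7), which encodes a plasma membrane transporter of iron and other divalent metals, had signals of 7.17, 7.16 and 7.13 in the control arrays and 12.16, 11.90 and 12.03 under alkali. The groups were far apart and each was tight, and the difference was 4.88 (SE 0.31), or 29.4-fold (limma, adjusted p = 2e-06). IRT2 (LOC4333667, chromosome 3), which encodes a ferrous iron transporter of the ZIP family, was at 4.05, 4.47 and 3.92 in control, close to background, and at 8.28, 8.26 and 7.75 under alkali, a difference of 3.95 (SE 0.30, limma, adjusted p = 9.17e-06). Its neighbour IRT1, with 1 gene between them, is named here after its values were seen. IRT1 was at 5.76, 5.44 and 5.77 in control and 6.88, 7.01 and 7.0 under alkali. The K83 arrays of IRT1 did not overlap, but its difference of 1.31 did not pass in the fit of all arrays (limma, adjusted p = 0.0537) and did with the K83 arrays alone (adjusted p = 0.000596). NRAMP5, the manganese and iron transporter gene that lies 2 genes from Nramp1, had a difference of -0.01.

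Synthesis of nicotianamine was split between genes. NAS1 (LOC4332608) and NAS2 (LOC4332607), adjacent nicotianamine synthase genes on chromosome 3, both rose. NAS1 was at 5.39, 4.45 and 4.15 in control, with a mean near background, and at 8.11, 8.02 and 8.13 under alkali. NAS2 was at 6.15, 5.31 and 5.42 in control and at 8.80, 8.81 and 8.71 under alkali. The alkali arrays of both genes lay within about the same narrow band, while the control arrays were more spread, with replicate 1 highest. The differences were 3.42 (SE 0.60, limma, adjusted p = 0.00462) and 3.14 (SE 0.52, adjusted p = 0.00326). NAS3 (LOC4344361, chromosome 7), the third member of the family, went the other way, from 11.17, 11.39 and 11.23 to 10.24, 10.14 and 10.32, a fall by 1.03 (SE 0.16, limma, adjusted p = 0.00235). NAAT1, the aminotransferase of the next step towards phytosiderophores, did not pass, with 10.12, 11.05 and 11.15 in control and 11.50, 11.82 and 11.68 under alkali (adjusted p = 0.242).

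Of the 22 genes in the list of nicotianamine, phytosiderophore synthesis and YSL transport, 3 rose (13.6%) and 2 fell (9.09%). Among genes with a name 6.41% rose and 8.95% fell. The median of the list was 0.12 beside -0.04 for all genes. The called YSL members were OsYSL13, which rose from 6.87, 7.27 and 7.12 to 8.51, 8.48 and 8.62, and YSL9, which fell by 0.50 (adjusted p = 0.0448) and was called in 1 of the 6 fits with an array left out. The other 13 of 15 YSL genes were not called. Of 28 genes for ferrous iron and other metal transport 5 rose (17.9%) and 1 fell (3.57%), with a median of 0.06. Among 8 IRT and NRAMP genes 4 rose, and those not yet described were NRAMP4 (8.96, 8.76 and 8.65 to 9.42, 9.31 and 9.46) and NRAMP6 (8.29, 8.34 and 8.34 to 8.92, 8.86 and 8.92). None of 12 MTP, HMA and COPT genes, which move metals into the vacuole, across the plasma membrane or into the cell, was called by limma. The name OsZIP3 is attached to 2 loci in the annotation. LOC4336971 rose by 1.16 from a control level near background and was called in 2 of the 6 fits with an array left out, whereas LOC4338051 fell by 0.68, from 10.18, 10.66 and 10.44 to 9.58, 9.83 and 9.81.

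BHLH063 (LOC4332972, chromosome 3), also known as IRO3, a transcription factor that restrains the iron deficiency response in rice, was at 7.53, 7.24 and 7.19 in control and 10.65, 9.83 and 10.27 under alkali. That rise of 2.93 (SE 0.36, limma, adjusted p = 0.000452) was 7.63-fold. IDEF1, which binds promoters of iron deficiency genes, was high in all K83 arrays (10.15 to 10.34) and moved by 0.10. OsVIT1.2 (LOC4346978, chromosome 9), a vacuolar iron transporter gene, fell from 9.25, 9.78 and 9.14 to 7.60, 7.69 and 7.84. The fall by 1.68 (SE 0.35, limma, adjusted p = 0.0119) was called in 5 of the 6 fits with an array left out. OsVIT1, the related gene on chromosome 4, had a difference of 0.25 and was not called.

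**Figure D2:**
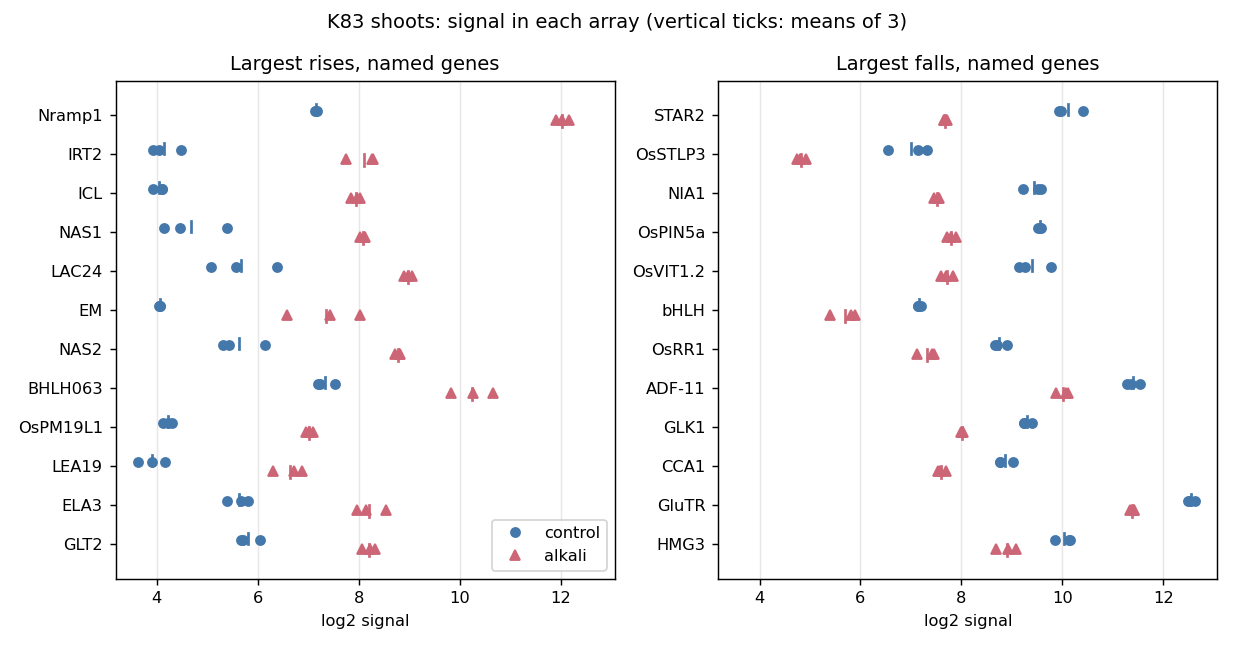
Signal (log2) in each K83 array for the 12 named genes with the largest rises (left) and the 12 with the largest falls (right). Circles are the 3 control arrays, triangles the 3 alkali arrays and vertical ticks their means. No gene has overlapping groups, which the rule for naming required, and Nramp1 has the widest gap, from 7.17 to 11.90.

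Outside the iron genes, the 3 largest rises among named genes were those of ICL, LAC24 and EM. ICL (LOC4343441, chromosome 7), isocitrate lyase of the glyoxylate cycle, was at 3.93, 4.11 and 4.11 in control and at 8.02, 7.84 and 7.97 under alkali, a rise of 3.90 (SE 0.55, limma, adjusted p = 0.0012) from near background. MS, malate synthase of the same cycle, rose from 6.79, 6.82 and 6.86 to 8.61, 8.91 and 8.78. Its K83 arrays were as tight as those of ICL, but the shared spread gave an SE of 0.52 and an adjusted p of 0.0433. The MS call was lost in each of the 6 fits that left out a K83 array, and with the K83 arrays alone its adjusted p was 6.3e-05. In the organic acid list, which also holds genes for pyruvate decarboxylase and alcohol dehydrogenase, 3 of 10 genes rose and 2 fell. The third rise was that of NADP-ME2 (0.53), while ME6, another malic enzyme gene, fell by 0.76. LAC24, a laccase gene, rose from 5.07, 6.37 and 5.57 to 8.97, 8.90 and 9.06, a difference of 3.31 (SE 0.58, limma, adjusted p = 0.00455).

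LEA proteins accumulate in drying seeds and water-stressed tissue. In the LEA list, which also holds the gene salT, 6 of 9 genes rose (66.7%) and 1 fell (11.1%), with a median of 0.69. The shares of genes with a name were 6.41% and 8.95%. Over the 6 fits with an array left out, 4 to 6 rose and 0 or 1 fell. EM (LOC4338499, chromosome 5), a seed LEA gene induced by abscisic acid, had almost equal control signals of 4.05, 4.07 and 4.07 near background and alkali signals of 8.02, 6.58 and 7.42. EM thus varied more under alkali than in control, and rose by 3.28 (SE 0.37, limma, adjusted p = 0.000251). LEA19 went from 4.17, 3.90 and 3.63, near background, to 6.88, 6.30 and 6.72. Its probe set may also detect related transcripts, and its call was lost with trended and robust variances (limma, adjusted p = 0.053). The RAB16 dehydrin genes stand side by side on chromosome 11. RAB21 rose from 6.04, 5.74 and 5.72 to 7.64, 7.73 and 7.54, and RAB16C rose by 0.55. RAB16B and RAB16D, near background in control, had differences of 0.26 and 0.13 and were not called. The dehydrin gene Dhn1 rose by 0.75, with 1 of 2 further probe sets of opposite sign and a mean over its probe sets of 0.20 that was not called (adjusted p = 0.173). The gene salT, which has the symbol ML, rose by 0.69 and was called in 1 of the 6 fits with an array left out. The gene rab25 fell by 0.71. OsPM19L1 (LOC4338635, chromosome 5), a membrane protein gene of the AWPM-19 family, rose from 4.30, 4.23 and 4.12, near background, to 7.10, 6.95 and 7.01 at the probe set shown. That difference was 2.80, and the mean of its probe sets rose by 1.42.

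Of 22 abscisic acid genes 3 rose (13.6%) and 1 fell (4.55%), beside 6.41% and 8.95% of genes with a name. The median was 0.13, and 2 or 3 rose and 0 fell over the 6 fits with an array left out. OsSAPK9, a protein kinase gene of abscisic acid and osmotic signalling, was at 10.05, 10.05 and 10.15 in control and 11.03, 11.04 and 11.09 under alkali, a rise of 0.97 (SE 0.10, limma, adjusted p = 0.000114). The related kinase gene OsSAPK6 rose by 0.62, a call lost in each of the 6 fits with an array left out, and the bZIP factor gene ABF2 rose by 0.59. ABA8OX2, a catabolic hydroxylase gene, fell by 0.33 and lost its call in each of those fits. Of 17 osmolyte genes 1 rose and 2 fell, with OsP5CS2 of proline synthesis higher by 0.64. Of its 3 further probe sets 2 had the opposite sign, and the mean over its probe sets, 0.15, was not called (adjusted p = 0.111). INO1, inositol phosphate synthase, fell from 11.16, 11.05 and 11.15 to 10.46, 10.43 and 10.46.

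Nitrogen genes moved in both directions, with 4 of 21 higher (19.0%) and 3 lower (14.3%), beside 6.41% and 8.95% of genes with a name. The median was 0.12. GLT2 (LOC4339561, chromosome 5), a glutamate synthase gene, rose from 5.70, 6.04 and 5.67 to 8.32, 8.07 and 8.22, a difference of 2.40 (SE 0.32, limma, adjusted p = 0.000808). The ammonium transporter genes AMT3-2 and AMT2-1 rose by 1.77 and 1.37, and the cytosolic glutamine synthetase gene GLN1-3 rose by 0.75 from near background. NIA1 (LOC4345795, chromosome 8), nitrate reductase, fell from 9.51, 9.22 and 9.58 to 7.55, 7.54 and 7.46, a difference of -1.92 (SE 0.14, limma, adjusted p = 6.06e-06). NIA1 has a further probe set, and the mean of both fell by 0.96 (adjusted p = 0.000436). The glutamate dehydrogenase gene GDH1 fell by 0.46.

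In the phosphate list 5 of 20 genes rose and 1 fell, with a median of 0.18. Leaving out K83 alkali replicate 1 or K83 control replicate 3 left 2 rises each, and leaving out K83 alkali replicate 2 left 5. OsPHR3, a transcription factor of the phosphate starvation response, went from 6.57, 6.76 and 7.21 to 8.37, 8.16 and 8.28, a rise of 1.42 (SE 0.17, limma, adjusted p = 0.000403). The phosphate transporter gene OsPht1;8 rose by 0.79, and OsPht1;4 rose by 0.64 with its call lost in each of the 6 fits with an array left out. Members of the SPX family, phosphate sensors that restrain PHR factors, moved unequally. OsSPX1 and OsSPX2 rose by 0.56 and 0.66, called in 2 and 3 of those 6 fits. OsSPX3 fell by 0.66, from 7.58, 7.42 and 7.01 to 6.73, 6.64 and 6.68, and was called in 1 of them.

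The largest fall among named genes was that of STAR2 (LOC4337635, chromosome 5), which encodes the membrane-spanning part of an ABC transporter known for aluminium tolerance. STAR2 was at 10.41, 9.94 and 9.97 in control and at 7.71, 7.65 and 7.65 under alkali, a fall by 2.44 (SE 0.13, limma, adjusted p = 2.9e-07). Its 1 further probe set had the opposite sign, and the mean of both fell by 1.16 (adjusted p = 9.85e-06). The gene with the symbol ABCI12 and the synonym ALS1 (LOC4341938) fell from 7.96, 7.82 and 8.08 to 6.67, 7.0 and 6.87. In the ion transport list that holds both, 3 of 36 genes rose (8.33%) and 4 fell (11.1%), near the 6.41% and 8.95% of genes with a name. The median was 0.01. The potassium transporter gene HAK10 rose by 0.93 and the potassium channel gene AKT1 by 0.78, each called in all 6 fits with an array left out. HAK7 fell by 0.61 and the cation exchanger gene CAX1b rose by 0.56, each called in 2 of those fits. Other large falls outside the lists were those of OsSTLP3 (LOC4336343), from 7.13, 6.55 and 7.32 to 4.8, 4.93 and 4.75, and of the actin-depolymerizing factor gene ADF-11 (LOC4352848), from 11.54, 11.35 and 11.27 to 10.10, 9.88 and 10.07. The gene listed only as bHLH (LOC4343984) fell by 1.46, and HMG3 (LOC4346017) fell by 1.14. The sodium transporter gene HKT1;5, which retrieves sodium from the xylem, was near background, at 4.39 in control and 4.64 under alkali.

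Water channel genes were called in one direction. Of 25 aquaporin genes 6 rose and 0 fell (limma), beside 5.04% and 7.82% of all genes, and the median member moved by 0.04. Of 8 TIP genes of the vacuolar membrane 4 rose. OsTIP3 went from 4.45, 4.40 and 4.60, near background, to 5.61, 5.92 and 5.97. OsTIP4;1, the most strongly detected of those that rose, went from 12.16, 12.01 and 12.19 to 12.76, 12.72 and 12.76, a difference of 0.63, or 0.38 as the mean of its probe sets. OsTIP1 rose by 0.89 and OsTIP4;2 by 0.71, the second called in 1 of the 6 fits with an array left out. Among plasma membrane aquaporins OsPIP2;7 rose by 0.86 and OsPIP1;3 by 0.55.

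Many genes of DNA replication and the cell cycle fell, all but OsTOP6A by less than 2-fold. Of 75 genes 30 fell and 2 rose, which is 40.0% lower beside 7.82% of all genes and 8.95% of genes with a name, with a median of -0.24. As for the other lists, the choice of this one with earlier results known means that its share is a description only. The count depended on the arrays, and leaving out K83 control replicate 2 gave the lowest number, 10. With any of K83 alkali replicate 1, K83 alkali replicate 3 or K83 control replicate 3 left out, 15 to 17 fell, and 21 fell with K83 alkali replicate 2 left out. Leaving out K83 control replicate 1 gave 26. Of the 75 differences 57 were negative with all arrays and 58 to 62 in those fits, which share most of their arrays. Differences were positive for 18 of the 75 genes, beside 7636 of all 17905 genes. Of 13 genes for the origin recognition complex and the MCM helicase, which license origins of replication, 8 fell. ORC1 was at 7.91, 7.99 and 8.21 in control and 7.10, 7.13 and 7.18 under alkali. ORC3 was at 6.07, 6.33 and 6.59 in control and 5.06, 5.45 and 5.60 under alkali. MCM7 went from 8.65, 9.08 and 9.14 to 8.02, 8.12 and 8.25. MCM2, MCM3, MCM4, MCM5 and OsMCM6, named after their values were seen, fell by 0.53 to 0.67, and the calls of MCM2 and MCM3 were lost in each fit with an array left out.

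Other parts of the replication machinery shared that direction. Of 7 genes for replication protein A, which coats single-stranded DNA, 5 fell, with OsRPA70b at 9.83, 10.10 and 10.01 in control and 8.99, 9.19 and 9.01 under alkali. Of 5 genes for the clamp loader replication factor C 2 fell, and 3 of 4 genes for polymerase delta and the FEN1 nuclease. The largest fall of the list was that of OsTOP6A (LOC4332468, chromosome 3), a subunit of topoisomerase VI, which went from 10.64, 10.76 and 10.71 to 9.69, 9.67 and 9.65, a difference of -1.03 (SE 0.08, limma, adjusted p = 1.42e-05). Of 7 A- and B-type cyclin genes 4 fell. CYCD5-1, a D-type cyclin gene, went against the list, from 6.90, 6.87 and 7.06 to 7.77, 7.77 and 7.85. Cyclin-dependent kinase genes had a median of 0.01, with 1 of 12 higher and 2 lower. The meristem markers, listed above, were not called, and the part of meristem content in these falls was not tested. Of the 25 genes in the ribosomal protein list 3 fell, and the median was -0.19. The largest fall (-0.69) was that of LOC4344541, which has the symbol Ip and is listed by its synonym rps14. Over the 6 fits with an array left out, 1 or 2 of the 25 were called lower.

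**Figure D3:**
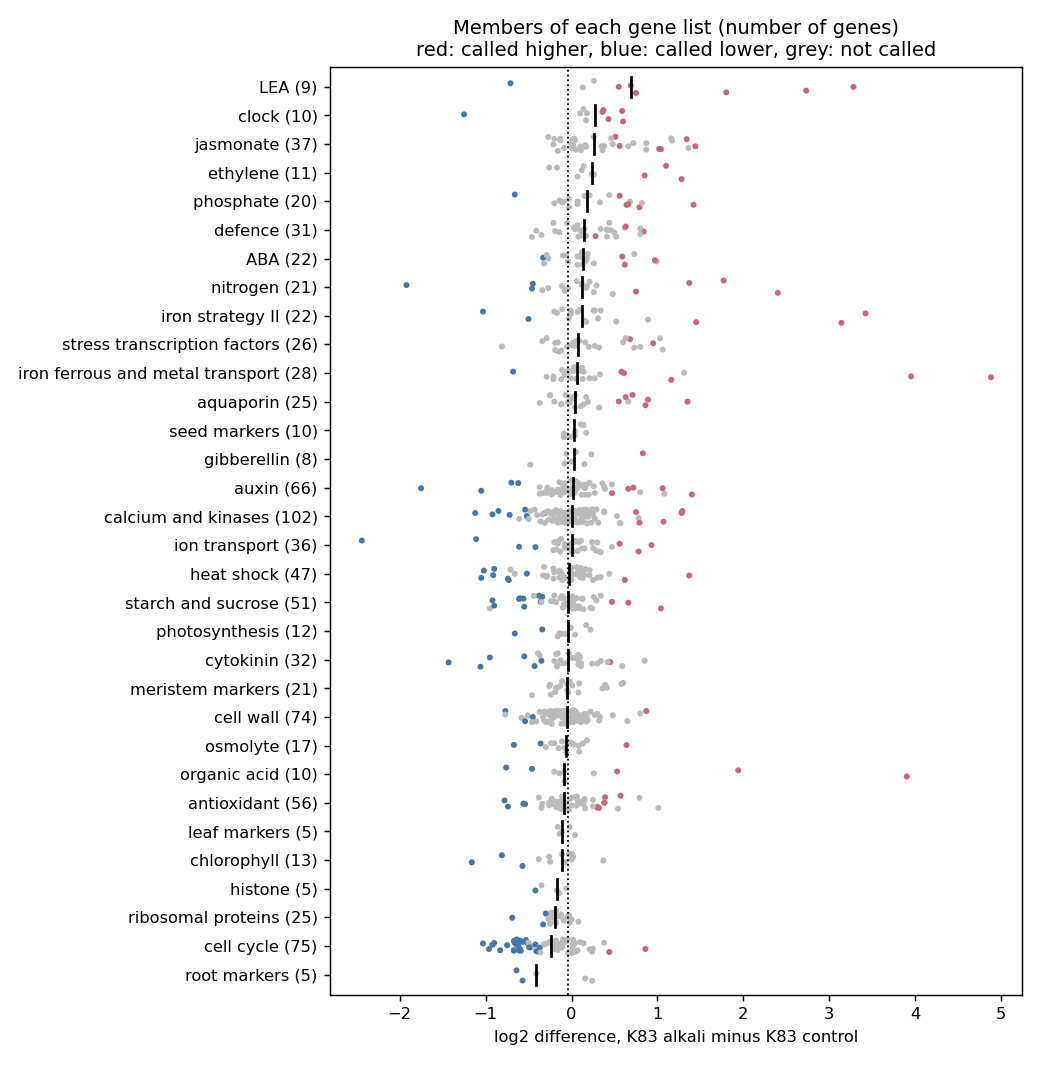
Difference between K83 alkali and K83 control arrays (log2) for each member of 32 gene lists of at least 5 genes, sorted by median, with the number of genes in brackets. Red points are called higher, blue lower and grey not called, black ticks are list medians, and the dotted line is the median of all genes at -0.04. Blue points crowd the cell cycle row, and the rightmost points are those of the metal transport row.

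Some genes of chlorophyll synthesis fell, as did a regulator of chloroplast development. GluTR (LOC4349044, chromosome 10), glutamyl-tRNA reductase at the entry to chlorophyll synthesis, fell from 12.48, 12.62 and 12.52 to 11.41, 11.33 and 11.41, a difference of -1.16 (SE 0.20, limma, adjusted p = 0.0046). CHLH, a magnesium chelatase subunit gene, went from 11.49, 11.64 and 11.60 to 10.90, 10.59 and 10.80. PORA, a protochlorophyllide reductase gene, fell by 0.57 and was called in 2 of the 6 fits with an array left out, and CHLH in 4 of them. These were the 3 called genes of 13 (23.1% lower, beside 8.95% of genes with a name), and the median of that list was -0.11. Of the 13, 1 was called without K83 alkali replicate 2 or without K83 control replicate 2. GLK1 (LOC4340977, chromosome 6), a transcription factor of chloroplast development, fell from 9.23, 9.24 and 9.39 to 8.02, 8.03 and 7.99. Of 12 photosynthesis genes 2 fell (16.7%), FNR (LOC4334338) by 0.34 and OsPSAG by 0.66. A further probe set of OsPSAG had the opposite sign, and the mean of both fell by 0.26. None of the 12 was called without K83 alkali replicate 2 (limma).

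Hormone genes moved in small groups. Of 37 jasmonate genes 6 rose (16.2%) and 0 fell (limma), beside 6.41% and 8.95% of genes with a name. The median was 0.26. Leaving out K83 alkali replicate 2 or 3, or K83 control replicate 1 or 2, left 2 rises in each case. JAZ5, a repressor of jasmonate signalling that is itself induced by it, went from 5.41, 5.46 and 5.69 to 6.59, 7.04 and 6.96. The oxophytodienoate reductase gene OPR4 rose from 4.37, 4.37 and 4.35, near background, to 5.78, 5.15 and 5.22. The lipoxygenase genes LOX2.1, LOX3 and LOX5 rose by 1.44, 1.04 and 0.56, called in 1, 1 and 0 of the 6 fits with an array left out. K83 control replicate 3 stood apart in several members, named here after their values were seen. JAZ13 was at 4.12, 4.90 and 7.27 in the control arrays and JAZ9 at 5.17, 5.25 and 6.60. Without that array the median of the jasmonate list was 0.37, the highest of the 6 fits. The same array was highest for the WRKY71 transcription factor gene, at 7.69, 8.36 and 9.63 in control and 9.40, 9.77 and 9.67 under alkali.

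In ethylene synthesis, ACS2 rose from 6.08, 6.18 and 6.46 to 7.60, 7.39 and 7.55, and ACO1 from 10.87, 10.89 and 10.89 to 11.76, 11.71 and 11.72. Those genes encode the synthase and the oxidase of the ethylene precursor. Together with EIL1 (LOC4332697, 1.10, called in 1 of the 6 fits with an array left out) they were the 3 of 11 ethylene genes that rose, and 0 fell (limma). That is 27.3% higher, beside 6.41% of genes with a name. In the cytokinin list 1 of 32 genes rose (3.12%) and 6 fell (18.8%, beside 8.95% of genes with a name). Its median was -0.04, and 3 to 5 fell over the 6 fits with an array left out. Type A response regulators, which cytokinin induces, made up 4 of the falls. OsRR1 went from 8.90, 8.70 and 8.66 to 7.41, 7.11 and 7.45, and OsRR5 from 6.02, 6.14 and 5.99 to 5.02, 5.2 and 5.06. OsRR6 and OsRR2 fell by 1.06 and 0.55, called in 3 and 1 of the 6 fits. The receptor gene HK3 rose by 0.45.

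Auxin genes were called about as often as other genes, with 5 of 66 higher and 4 lower and a median of 0.02. OsPIN5a (LOC4324368, chromosome 1), an auxin transporter gene, fell from 9.52, 9.58 and 9.55 to 7.80, 7.72 and 7.89. That difference of -1.75 (SE 0.10, limma, adjusted p = 4.8e-07) had one of the smallest errors among the named falls. GH3-8, which encodes an enzyme that joins auxin to amino acids, rose from 6.01, 6.32 and 6.44 to 7.76, 7.25 and 7.96. Genes for hydrolases of such conjugates moved both ways, with ILL8 higher by 0.66 and ILL6 and ILL2 lower by 1.05 and 0.70. The Aux/IAA repressor genes IAA2 and IAA18 rose by 1.06 and 0.72. In the gibberellin list of 8 genes 20ox2, a gibberellin oxidase gene, rose by 0.83 and no other was called.

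Several heat shock protein genes fell. Among 27 genes for heat shock proteins and related chaperones 6 fell (22.2%) and 0 rose (limma), beside 8.95% and 6.41% of genes with a name. The whole list of 47, with the heat shock factors, had 2 higher (4.26%) and 7 lower (14.9%) and a median of -0.03. Leaving out K83 alkali replicate 2 or 3 left 3 lower in that list, and leaving out K83 control replicate 1 or 2 left 4. HSP24.1 went from 9.65, 9.83 and 9.40 to 8.76, 8.56 and 8.50, and HSP22.3 from 7.10, 6.73 and 6.88 to 6.07, 5.80 and 6.13. HSP26.2 and HSP16.9B fell by 0.74 and 1.05, the second called in 2 of the 6 fits with an array left out. LOC4348646, which has the symbol ARD1 and is listed only by its synonym HSF25, went from 7.78, 7.86 and 7.85 to 8.92, 9.38 and 9.30. Its further probe set had the opposite sign, and the mean of both rose by 0.62.

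Of 102 calcium sensor and kinase genes 5 rose (4.9%) and 7 fell (6.86%), near the 6.41% and 8.95% of genes with a name. CIPK10 rose from 7.50, 7.14 and 7.48 to 8.67, 8.68 and 8.63, CIPK29 rose by 1.28, and CIPK1 fell from 11.59, 11.51 and 11.65 to 10.39, 10.52 and 10.47. These kinases act with calcineurin B-like calcium sensors, of which CBL4 fell by 0.92 and was called in 1 of the 6 fits. In starch and sucrose metabolism 3 of 51 genes were higher and 9 lower, or 17.6% lower beside 8.95% of genes with a name. The number lower was 3 to 6 in the fits that each left out a K83 array, with 3 when either alkali replicate 2 or control replicate 2 was left out. The hexokinase gene HXK6 went from 6.54, 6.63 and 6.93 to 7.71, 7.74 and 7.77, the sucrose synthase gene OsSUS4 rose by 0.66, and the starch synthase gene SS1 fell from 8.36, 8.31 and 8.27 to 7.41, 7.44 and 7.34. Of 56 antioxidant genes 5 rose (8.93%) and 4 fell (7.14%), again near the shares of genes with a name. In each of the 6 fits with an array left out 1 rose and 2 or 3 fell. APX1, a cytosolic ascorbate peroxidase gene, fell from 12.98, 13.15 and 12.97 to 12.24, 12.28 and 12.26, whereas the chloroplast isoform gene APX8 rose by 0.39, a call lost in each of the 6 fits. Of 31 defence genes 3 rose (9.68%), beside 6.41% of genes with a name. Among the 3 were the chitinase genes Cht2 (0.84) and Cht10 (0.63). In 5 of the 6 fits with an array left out 1 defence gene rose, and 4 rose without K83 alkali replicate 1. Of 26 stress transcription factor genes 2 rose (7.69%), near the 6.41% of genes with a name. They were NAC45 (0.95) and NAC048 (0.68), the second higher by 0.34 as the mean of its probe sets. Without K83 control replicate 3 that list had 4 rises, without K83 alkali replicate 1 it had 1, and in each of the other fits with a K83 array left out it had 0 (limma). Of 74 cell wall genes 1 rose (1.35%), CSLE1 by 0.87, and 3 fell (4.05%), both shares below those of genes with a name.

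In the clock list, which also holds the flowering-time genes Hd1, Hd3a, HD2 and Hd5, 5 of 10 genes rose (50.0%) and 1 fell (10.0%). Its median was 0.27. CCA1 (LOC4344703, chromosome 8), a clock transcription factor that peaks at dawn, fell from 8.77, 8.77 and 9.03 to 7.58, 7.53 and 7.70. Its 1 further probe set had the opposite sign, and the mean of both fell by 0.60 (adjusted p = 0.00578). The 5 that rose were OsPRR95 (0.60), Hd1 (0.59), OsPCL1 (0.43), OsPRR1 (0.37) and GI (0.36). Those rises were small, and the number of members called higher was 0 to 4 over the 6 fits with an array left out, 0 being the count without K83 control replicate 2. The labels give the time after the change of medium but no hour of harvest for each array, and a part of harvest time in these values was not tested.

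Some of the strongest responses were in genes with a locus number and no name in the annotation. LOC4351985 (chromosome 12) had the largest rise of all genes, from 4.13, 3.97 and 4.76, near background, to 11.06, 10.55 and 10.78, a difference of 6.51 (SE 0.40, limma, adjusted p = 1.32e-06). LOC4333962 (chromosome 3) went from 3.92, 4.81 and 5.21, with a mean near background, to 10.26, 10.21 and 10.26. LOC4337274 (chromosome 4), at 5.54, 5.54 and 5.82 in control and 11.04, 10.54 and 10.71 under alkali, had a smaller error, with a difference of 5.13 (SE 0.20, limma, adjusted p = 2.03e-08). LOC4324179 (chromosome 1) rose by 4.0 to 12.63, 12.48 and 12.57, and by 2.58 as the mean of its probe sets. LOC9268371 (chromosome 5) rose by 3.78 from unequal control arrays at 7.0, 7.96 and 9.71. Among falls, LOC4350534 (chromosome 11) went from 10.38, 9.55 and 9.46 to 6.03, 5.72 and 5.93. LOC4340075 (chromosome 6) went from 10.74, 10.74 and 10.77 to 7.46, 7.37 and 7.42, a fall by 3.33 with an SE of 0.10 (limma, adjusted p = 2.87e-09).

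The response of Jijing88, in which 8.22% of genes rose and 7.35% fell, was set beside that of K83. Of the 903 genes that rose in K83, 568 also rose in Jijing88, which is 62.9% of the K83 set and 38.6% of the Jijing88 set. Of the 1400 that fell in K83, 481 also fell in Jijing88, or 34.4% and 36.6%. The difference between the effects (K83 minus Jijing88) was called for 360 probe sets, 0.629% of those tested, and for 185 genes (1.03%), of which 61 were more positive in K83 and 124 more negative. Leaving out Jijing88 control replicate 3 raised the number of probe sets to 646, and leaving out K83 alkali replicate 3 lowered it to 107. Over the other arrays it ranged between these values.

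The iron uptake genes Nramp1 and IRT2 differed between the genotypes both in response and in starting level. In Jijing88 Nramp1 was at 10.92, 10.25 and 12.06 in control and 13.19, 12.76 and 12.99 under alkali. All K83 control arrays of Nramp1 therefore lay below all Jijing88 control arrays, and the K83 alkali arrays remained below the Jijing88 alkali arrays. The effect was larger in K83 by 2.98 (SE 0.44, limma, adjusted p = 0.0122). IRT2 was at 6.89, 6.89 and 8.15 in Jijing88 control and 9.19, 8.82 and 8.42 under alkali, and its effect was larger in K83 by 2.45 (SE 0.43, limma, adjusted p = 0.0267). Jijing88 control replicate 3 was the highest control array for both genes. Without it the differences were 2.48 (adjusted p = 0.000699) for Nramp1 and 2.03 (adjusted p = 0.0115) for IRT2. The IRT2 difference was called in 7 of the 12 fits that each left out an array. The locus-only genes LOC4351985 and LOC4333962 had larger rises in K83 by 4.38 and 3.82, again from lower control levels (9.48, 8.96 and 10.98, and 8.43, 7.89 and 9.66, in Jijing88).

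ELA3 (LOC4341858, chromosome 6) had control levels near those of Jijing88 and responded differently. ELA3 went from 5.66, 5.38 and 5.81 to 8.53, 7.96 and 8.14 in K83, and was at 5.70, 5.98 and 7.07 and then 5.75, 6.25 and 5.89 in Jijing88, a difference of 2.88 (SE 0.40, limma, adjusted p = 0.00767). LEA19 had a larger difference of 3.48 that did not pass (adjusted p = 0.0693). In Jijing88 LEA19 was at 3.73, 4.0 and 6.76 in control and 3.90, 4.18 and 4.17 under alkali, so that control replicate 3 stood apart and adds to this difference. ILL8 rose in K83 and fell in Jijing88, with a difference of 1.45. GH3-8 and OsPIP2;7 also responded more positively in K83, by 1.18 and 1.14 (adjusted p = 0.0394 for each), and were called in 1 and 2 of the 12 fits with an array left out.

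Some chlorophyll and clock genes differed in the other direction. The difference was called for 2 of 13 chlorophyll genes, PORA and CHLH, beside 1.03% of all genes. In the clock list it was called for 2 of 10 genes, CCA1 and OsPRR95. For PORA, CHLH and CCA1 all K83 control arrays lay above all Jijing88 control arrays. PORA went from 9.85, 10.25 and 10.18 to 9.63, 9.51 and 9.44 in K83, and from 8.80, 9.20 and 8.89 to 10.08, 9.96 and 10.21 in Jijing88. The K83 effect was different by -1.69 (95% interval -2.07 to -1.30, limma, adjusted p = 0.0014), and this difference was called in all 12 fits with an array left out. CHLH, at 10.44, 10.88 and 10.50 and then 11.39, 10.69 and 11.31 in Jijing88, differed by -1.34 (adjusted p = 0.0288), called in 4 of those 12 fits. GLK1 differed by -1.43 (adjusted p = 0.00529), called in all 12. GluTR, in contrast, fell in both genotypes, with a difference of 0.44 that did not pass (adjusted p = 0.538). CCA1 fell in K83 and was at 7.27, 7.45 and 7.96 and then 8.48, 8.04 and 7.70 in Jijing88, a difference of -1.77 (adjusted p = 0.0142). OsPRR95 rose in both, by 1.66 less in K83. ABA1, zeaxanthin epoxidase of abscisic acid synthesis, was at 8.57, 8.64 and 8.54 and then 8.33, 8.15 and 8.31 in K83, and its effect differed by -1.47 (adjusted p = 0.00406). ASMT, a melatonin synthesis gene, stayed near background in K83 (3.58, 3.60 and 4.06, then 4.17, 4.19 and 4.33) and reached 6.83, 6.47 and 6.15 in Jijing88. NIA1 and OsPIN5a fell further in K83, by differences of -1.31 (adjusted p = 0.013) and -1.09 (adjusted p = 0.00406).

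**Figure D4:**
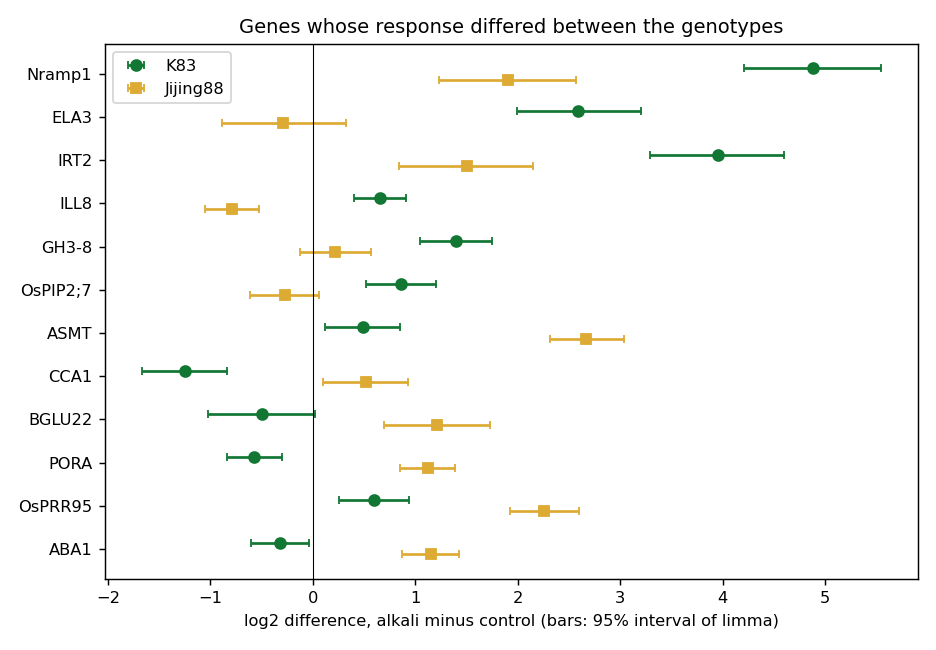
Alkali effect (log2, alkali minus control) in K83 (circles) and Jijing88 (squares) for the 6 named genes with the largest positive and the 6 with the largest negative difference between the effects, with 95% intervals from limma as bars. Nramp1 and IRT2 rose in both genotypes and further in K83, whereas PORA has effects of opposite sign.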

How the data were processed

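The table deposited by the authors gives each probe set a log2 signal on every array. RMA and limma are named, without further detail, in the submitters' processing notes. Base 2 was inferred from the range of the values, since the sources used here do not state it. No further normalization was applied. Of 57381 probe sets 123 control probe sets were left out. Groups of 3 arrays follow the genotype and stress labels. The precision is limited by the number of arrays.

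The main test was limma 3.58.1 in R 4.3.3, a fit of 4 group means over 12 arrays with moderated variances (8 residual degrees of freedom) and two-sided p-values adjusted by Benjamini-Hochberg over all probe sets. The pipeline was tested on simulated data.

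Genes were named through GEO's platform annotation, updated with RefSeq genes of the Japonica group, and 22436 probe sets had 1 gene, 95 had several and 34727 had none. More than a locus number was known for 2435 of the 17905 genes. The array's build is not given in the sources used here, so only chromosomes and the order of neighbours in the RefSeq table are given. Promoter sequences were not analysed here.

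Members of 34 gene lists were found by name patterns. After the annotation was read, 146 matches that were other genes were left out. The members and lists were chosen with earlier results of these data known. Unnamed members are missing from the lists. Named are the 12 largest rises and falls among called genes with a name whose arrays do not overlap, per list the 6 called members with the largest differences (failing any call, the one of lowest p), the 6 largest differences between genotypes in each direction, and up to 6 locus-only genes per direction. Other named genes were chosen after their values were seen.

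Alternatives were median centring, leaving out dim probe sets, K83 arrays alone, a replicate block, variances with a trend and robust moderation, a mean over a gene's probe sets, and leaving out each array in turn.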

Additional observations from a re-analysis of the deposited data

Results flagged for a closer look

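The alkali effect differed between K83 and Jijing88, by limma's test of the difference, most strongly for the following named genes. Each value is the K83 effect minus the Jijing88 effect on the log2 scale, with its adjusted p. More positive in K83 were Nramp1 at 2.98 (adjusted p = 0.0122), ELA3 at 2.88 (adjusted p = 0.00767), IRT2 at 2.45 (adjusted p = 0.0267), ILL8 at 1.45 (adjusted p = 0.00244), GH3-8 at 1.18 (adjusted p = 0.0394) and OsPIP2;7 at 1.14 (adjusted p = 0.0394). More negative in K83 were ASMT at -2.19 (adjusted p = 0.00168), CCA1 at -1.77 (adjusted p = 0.0142), BGLU22 at -1.71 (adjusted p = 0.0434), PORA at -1.69 (adjusted p = 0.0014), OsPRR95 at -1.66 (adjusted p = 0.00579) and ABA1 at -1.47 (adjusted p = 0.00406). BGLU22, a beta-glucosidase gene, was at 9.02, 8.77 and 9.10 in K83 control and 8.54, 8.38 and 8.46 in K83 alkali, and its difference was called in 2 of the 12 fits that each left out an array. No group of 3 arrays is large enough for a test of single outlying arrays.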

How the results depend on the processing

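With each K83 array left out in turn, the count of called probe sets in K83 was 1721 to 2658 (3700 with all), with 762 to 1240 higher and 940 to 1445 lower. The difference between the genotypes was called for 107 to 646 probe sets over the 12 arrays left out (360 with all) and for 626 with dim probe sets left out, an alternative that tests fewer probe sets. Median centring gave 1281 higher and 2842 lower. The replicate number used as a block gave 1622 higher, 2250 lower and 322 differences between genotypes. Deviations of the same-numbered K83 control and alkali arrays correlated at 0.195, 0.005 and 0.057, so that the numbers do not show that the arrays are paired. Of the named genes 153 were called and 96 of these were called in all 6 fits that left out a K83 array. Calls were lost for 7 named genes each with K83 arrays alone, under the replicate block and with trended and robust variances, and for 4 each under median centring and as the mean over a gene's probe sets, and no named difference that was called changed sign under the alternatives run. The promoter comparison that was planned was not run.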
